A study of Mus musculus with 2 samples.

Results

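Exon peaks are the H3K36me2 regions that the deposited annotation places in an exon of a named transcript. They were taken as every peak of the lists whose annotation opens with the word exon, and each carries the number of that exon and the number of exons in the transcript. There were 7392 of them among 43494 peaks, 3301 of 19976 in the Nsd2 fl/fl library and 4091 of 23518 in the Nsd2 ΔIE library.

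Each library came from colon of C57BL/6J mice fed a high-fat cholesterol diet (HFCD), for 18 weeks as the methods state it or 16 weeks as the deposited design gives it. Nsd2 fl/fl mice carry floxed Nsd2 alleles and served as controls. Nsd2 ΔIE mice carry the same alleles and Cre driven by the Villin promoter, which is active in the intestinal epithelium, so muscle, stromal, immune and nerve cells of the colon keep NSD2. The methods describe male littermates that were 7 to 8 weeks old when the diet began, and no source states whether animals were pooled. There was 1 library per genotype, so no test between genotypes was possible, peaks within a library are not replicates, and every interval given is a 95% interval that covers counting error only.

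NSD2 is a methyltransferase that adds methyl groups to lysine 36 of histone H3 up to the dimethylated form, H3K36me2, a mark that spreads over gene bodies and intergenic chromatin. SETD2, which travels with elongating RNA polymerase, makes the trimethylated form over the bodies of transcribed genes. The PWWP domain of the DNA methyltransferase DNMT3A binds H3K36me2. CUT&Tag maps such a mark by tethering the transposase Tn5 to an antibody, so that DNA around the mark is tagged and sequenced.

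Exon peaks made up 16.5% of the Nsd2 fl/fl peaks (95% Wilson interval 16.0% to 17.0%) and 17.4% of the Nsd2 ΔIE peaks (16.9% to 17.9%). Of the peaks inside gene bodies, meaning those annotated to a UTR, an exon or an intron, they were 33.8% and 34.1%. Introns held 4204 and 5557 peaks. The annotation calls any peak within 3 kb of a transcription start site (TSS) a promoter peak, and gives promoters and then UTRs priority over exons. An exon peak is therefore one that met neither a promoter nor a UTR, and a peak that covers several exons is named for only 1 of them. A peak over several exons also covers the introns between them and still has the exon label. The part of this rule in the contrasts of exon and intron peaks was not tested.

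The exon peaks of the Nsd2 ΔIE library were narrower. Their median width was 3434 bp (quartiles 2851 bp and 4195 bp) against 4641 bp (3916 bp and 5672 bp) in Nsd2 fl/fl, a log2 ratio of -0.43 that stood beside -0.44 for all peaks. Intron peaks were slightly narrower than exon peaks in each library, with medians of 4497 bp and 3309 bp. The exon peaks of at least 10000 bp numbered 88 in Nsd2 fl/fl, or 2.67%, and 25 in Nsd2 ΔIE, or 0.611%. The shares among intron peaks were 1.59% and 0.180%. The lowest summed signal of an exon peak, which is the authors' value over the whole region, was 21785 in Nsd2 fl/fl but 16571 in Nsd2 ΔIE, so the lists began at different limits, and the part of this limit in the width was not tested. Signal divided by width had medians of 6.17 and 6.36 per bp, against 6.06 and 6.27 per bp in introns. Since no scaling to depth is stated, signal was read only within a list.

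Exon peaks lay along the middle of long transcripts. The transcripts named had a median of 16 exons in Nsd2 fl/fl against 15 in Nsd2 ΔIE, and the exon named was at the median exon 7 in both. With the exons of each transcript divided into 3 equal stretches by number, the middle stretch held 42.9% of the Nsd2 fl/fl exon peaks (41.2% to 44.6%), the first 26.7% and the last 30.3%. In Nsd2 ΔIE the shares were 41.7%, 25.2% and 33.1%. The last stretch was thus somewhat fuller in Nsd2 ΔIE, with intervals of 31.7% to 34.6% there and 28.8% to 31.9% in Nsd2 fl/fl that overlap.

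The low ends follow in part from the annotation. Exon 1 was named for 36 and 60 peaks, and among them for 0 and 1 in coding transcripts, since a first exon lies within reach of the promoter. The last exon was named for 303 and 386 peaks, and 295 and 366 of these belonged to noncoding transcripts, which have no 3′ UTR that could take the peak. Transcripts with at least 10 exons were also divided into 10 bins by exon number. Bins 2 to 8 held between 9.73% and 15.0% of the exon peaks each, whereas bin 1 held 3.71% and 3.84% and bin 10 held 2.82% and 4.43%. Intron peaks were placed otherwise. The first stretch of the introns held 63.2% of them in Nsd2 fl/fl compared with 61.8% in Nsd2 ΔIE, and intron 1 alone held 35.4% and 33.8%. Introns differ in length and the first is often the longest, which was not corrected for.

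**Figure D1:**
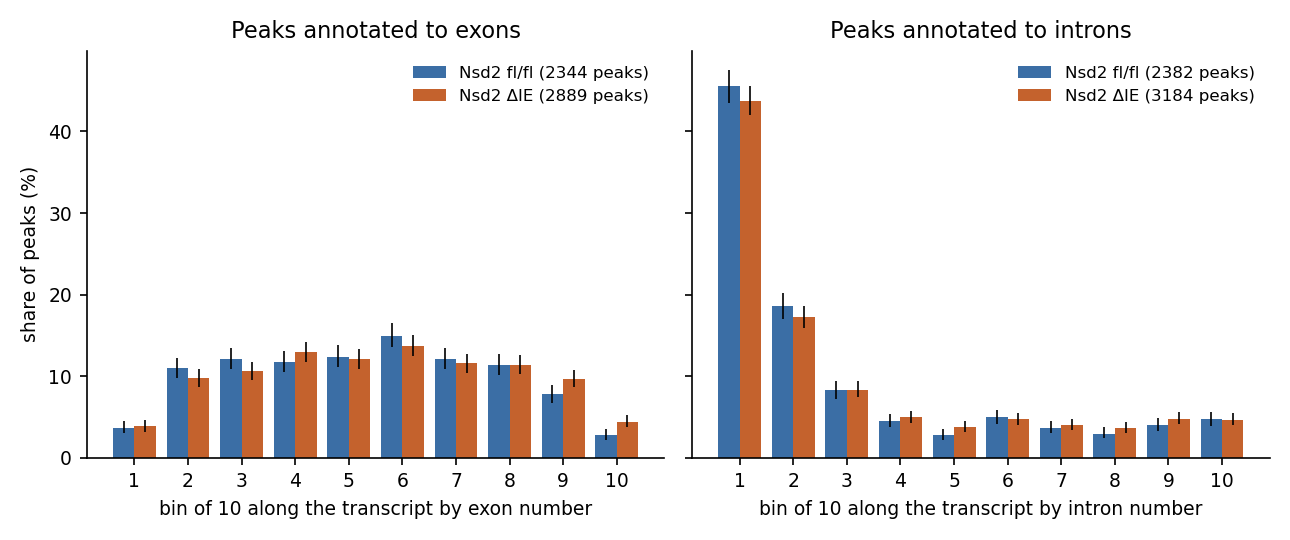
Share of exon peaks (left) and intron peaks (right) in each of 10 bins along the transcript, counted by exon or intron number from the start, in transcripts with at least 10 exons or introns. Bars are 1 library each with 95% Wilson intervals. Exon peaks fill the inner bins about evenly and both ends thinly, while intron peaks are concentrated in the first bins.

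More than 1 exon peak in 3 had a counterpart in the other list, meaning a peak there that shared at least 1 bp. In Nsd2 fl/fl 1250 of 3301 exon peaks had one, or 37.9% (36.2% to 39.5%), where the share over all peaks was 34.1%. In Nsd2 ΔIE 1457 of 4091 had one, or 35.6% (34.2% to 37.1%), where the share over all peaks was 30.7%. Intron peaks had counterparts in 26.2% and 24.5%, and intergenic peaks in 21.8% and 18.3%. Promoter peaks stood higher, at 41.0% and 38.4%. The intervals of exon and intron peaks lay apart in each library. The order of the libraries depended on list size, since with equal numbers of peaks the exon shares were 34.7% in Nsd2 fl/fl but 37.3% in Nsd2 ΔIE.

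**Figure D2:**
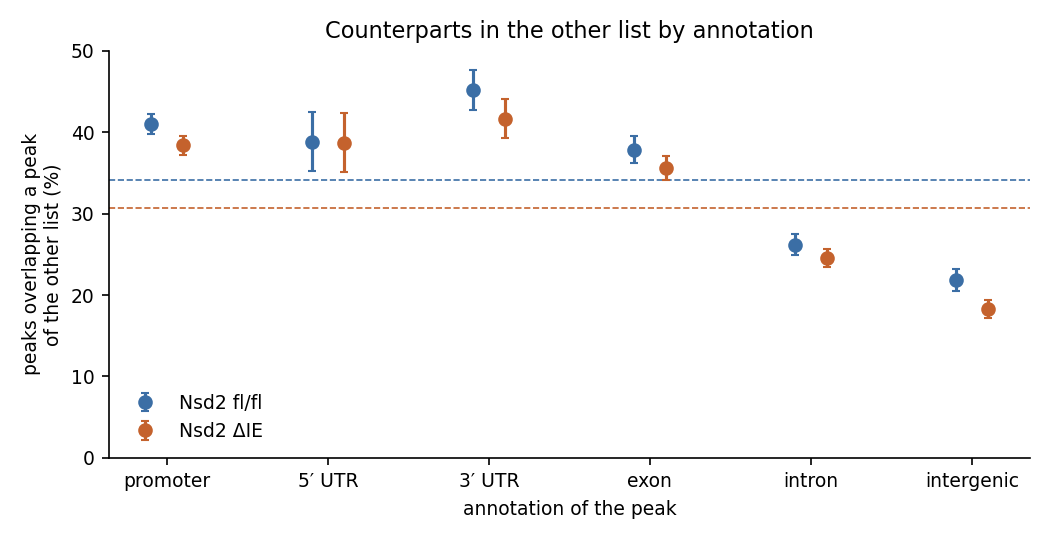
Share of peaks that overlap a peak of the other list by at least 1 bp, by annotation, for the Nsd2 fl/fl and the Nsd2 ΔIE library. Points are shares with 95% Wilson intervals, and dashed lines are the shares over all peaks, 34.1% and 30.7%. Exon peaks sit above these lines and intron and intergenic peaks below them.

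The difference between exons and introns was present at every level of signal. In the lowest quartile of summed signal of the Nsd2 fl/fl list, 24.7% of the exon peaks and 17.9% of the intron peaks had a counterpart. In the highest quartile the shares were 57.6% and 44.1%. In Nsd2 ΔIE they ran from 25.1% to 52.8% for exon peaks and from 18.7% to 39.8% for intron peaks. With a reciprocal overlap of at least 50% as the criterion, 17.3% and 14.3% of the exon peaks and 11.8% and 9.54% of the intron peaks had a counterpart. Peaks also lay closer together around exons. The median gap from an exon peak to the next peak of its own list was 11394 bp and 9232 bp, against 15632 bp and 14326 bp for intron peaks, and the part of this spacing in the overlap was not tested.

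**Figure D3:**
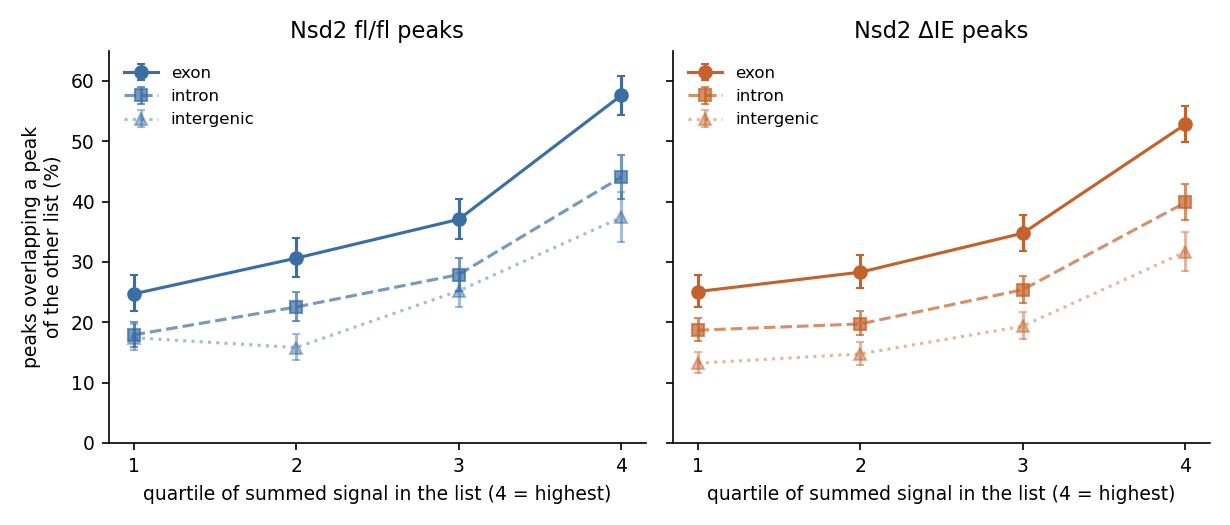
Share of exon, intron and intergenic peaks that overlap a peak of the other list, by quartile of summed signal within the list, for Nsd2 fl/fl peaks (left) and Nsd2 ΔIE peaks (right). Points are shares with 95% Wilson intervals. Exon peaks rise from 24.7% to 57.6% and from 25.1% to 52.8%, above intron peaks in every quartile.

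Along the transcript, 41.4% of the Nsd2 fl/fl exon peaks in the first stretch had a counterpart, 38.4% in the middle one and 34.0% in the last. In Nsd2 ΔIE the shares were 37.2%, 36.9% and 32.7%. Exon peaks of coding transcripts had a counterpart in 39.2% and 37.6%, and those of noncoding transcripts in 33.2% and 28.8%.

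The counterpart was usually an exon peak of the same transcript. Of the 1250 Nsd2 fl/fl exon peaks with one, 966 met an exon peak, 145 an intron peak, 59 a 3′ UTR peak and 52 a promoter peak. For the 1457 from Nsd2 ΔIE the numbers were 1005, 62, 158 and 189. A promoter peak of the other list was thus met by 4.16% of the first set and 13.0% of the second. Seen from Nsd2 fl/fl, 946 pairs named the same transcript, of which 519 named the same exon, or 54.9%, and 725 an exon at most 1 number away. The largest distance was 16 exons. Where 1 exon peak met exactly 1 exon peak, in 817 pairs, 351 were narrower in Nsd2 ΔIE by more than 0.5 on the log2 scale, or 43.0%, against 45.5% of all such pairs. Wider were 85, or 10.4%, against 8.68%.

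The Nsd2 gene itself carried an exon peak only in the Nsd2 fl/fl list. It lay in exon 19 of 23 of the predicted transcript XM_006503658.5, on chromosome 5 from 34043128 to 34048744, was 5617 bp wide and had a signal of 5.38 per bp. No Nsd2 ΔIE peak overlapped it. The nearest ones lay 66102 bp below, a promoter peak of Nsd2, and 7804 bp above, a promoter peak of the microRNA gene Mir7024. The annotation gives Mir7024 as the nearest gene of the exon peak, so a search by nearest gene does not find it under Nsd2. A histone peak does not measure expression, and the deletion could not be checked in these lists.

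Nsd3, a paralog that also methylates H3K36, had an exon peak only in the Nsd2 ΔIE list, in exon 19 of 23 of NM_001081269.2, on chromosome 8 from 26194545 to 26197165, with a width of 2621 bp and 6.34 per bp. Its nearest gene by the annotation was Plpp5. In Nsd2 fl/fl, Nsd3 had a promoter peak of 4453 bp and a 3′ UTR peak of 5245 bp. Nsd1 had no exon peak. Ern1, which encodes the ER stress sensor that the study follows, had none either, and its peak in Nsd2 fl/fl was in intron 2 of 20. By summed signal the Nsd2 peak had rank 7018 of 19976 in its list and the Nsd3 peak rank 23276 of 23518.

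About 1 exon peak in 2 was listed with another gene than the one whose exon it covered. The nearest TSS belonged to another gene for 1685 exon peaks in Nsd2 fl/fl, or 51.0% (49.3% to 52.7%), and for 2040 in Nsd2 ΔIE, or 49.9% (48.3% to 51.4%). Among intron peaks this held for 44.9% and 45.7%. For 920 and 1075 of these peaks the nearest gene was an unnamed one (Gm and Rik symbols and LOC numbers), and for 90 and 101 it was a microRNA gene. The distance to the nearest TSS had a median of 14380 bp and 13496 bp, and it was never under 3006 bp.

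Mature microRNAs are shown for 3 of these microRNA genes, because their names stand in the lists in place of the gene whose exon was covered. They come from RefSeq (GRCm38.p6), read 5′ to 3′, and capitals mark the seed, bases 2 to 8, which pairs with target mRNAs. Mir218-2 lies within Slit3, which encodes a secreted guidance ligand, and Mir499 within the muscle myosin gene Myh7b. Mir7024 is not within Nsd2 in that annotation.
mmu-miR-7024-5p: uUGGGGGAuggguugcuuggc
mmu-miR-7024-3p: cCAGCAGUcccugcucccuacag
mmu-miR-218-5p: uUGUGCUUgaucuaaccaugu
mmu-miR-218-2-3p: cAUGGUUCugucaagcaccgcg
mmu-miR-499-5p: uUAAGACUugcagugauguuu
mmu-miR-499-3p: gAACAUCAcagcaagucugugcu
No seed is shared among them. Of 3 Slit3 exon peaks listed under Mir218-2 in Nsd2 fl/fl, those in exons 11 and 12 of 36 had no counterpart. The one in exon 16, on chromosome 11 from 35514325 to 35521948, overlapped the single such peak of Nsd2 ΔIE, in exon 17, from 35517831 to 35521649. The Myh7b peaks listed under Mir499 lay in exons 31 and 29 of 41, on chromosome 2 at 155472606 to 155475281 and 155472002 to 155475024, and also overlapped.

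The exon peaks named 2569 genes in Nsd2 fl/fl against 3089 in Nsd2 ΔIE, of which 2069 and 2424 had a single one. A promoter peak in the same list was found for 723 of the Nsd2 fl/fl genes, or 28.1%, and for 853 of the Nsd2 ΔIE genes, or 27.6%. Genes with an exon peak in both lists numbered 1266, which is 49.3% of the first set and 41.0% of the second. Genes with a peak of any kind in both lists numbered 7459, or 62.4% and 57.3%. Of the 1303 genes with an exon peak only in Nsd2 fl/fl, 673 had a peak of another kind in Nsd2 ΔIE, and of the 1823 with one only in Nsd2 ΔIE, 925 had another kind in Nsd2 fl/fl.

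Among the genes with the most exon peaks over both lists were long genes of matrix and adhesion proteins. Csmd2, which encodes a CUB and sushi domain membrane protein, had 6 in Nsd2 fl/fl against 11 in Nsd2 ΔIE. Hmcn2, which encodes the matrix protein hemicentin 2, had 8 and 9. Cdh23, which encodes a cadherin of hair cell tip links, had 6 and 9. Col5a1, which encodes a chain of fibrillar collagen V, had 5 and 7, a total that 3 further genes reached.

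Their peaks alternated between regions found in both lists and regions found in 1. Of the 8 Hmcn2 peaks of Nsd2 fl/fl, those in exons 15, 36, 46 and 63 of 99 had a counterpart, while those in exons 27, 56, 83 and 86 had none. In Cdh23 the peaks in exons 4, 9 and 10 of 69 were named alike in both lists, whereas the Nsd2 fl/fl peaks in exons 3 and 35 and the Nsd2 ΔIE peaks in exons 7, 15 and 29, and in exon 3 of a shorter transcript, had no counterpart. In Col5a1 a single Nsd2 fl/fl peak of 12086 bp named for exon 39 of 66 spanned 2 Nsd2 ΔIE peaks, of 1885 bp in exon 42 and of 4196 bp in exon 47.

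**Figure D4:**
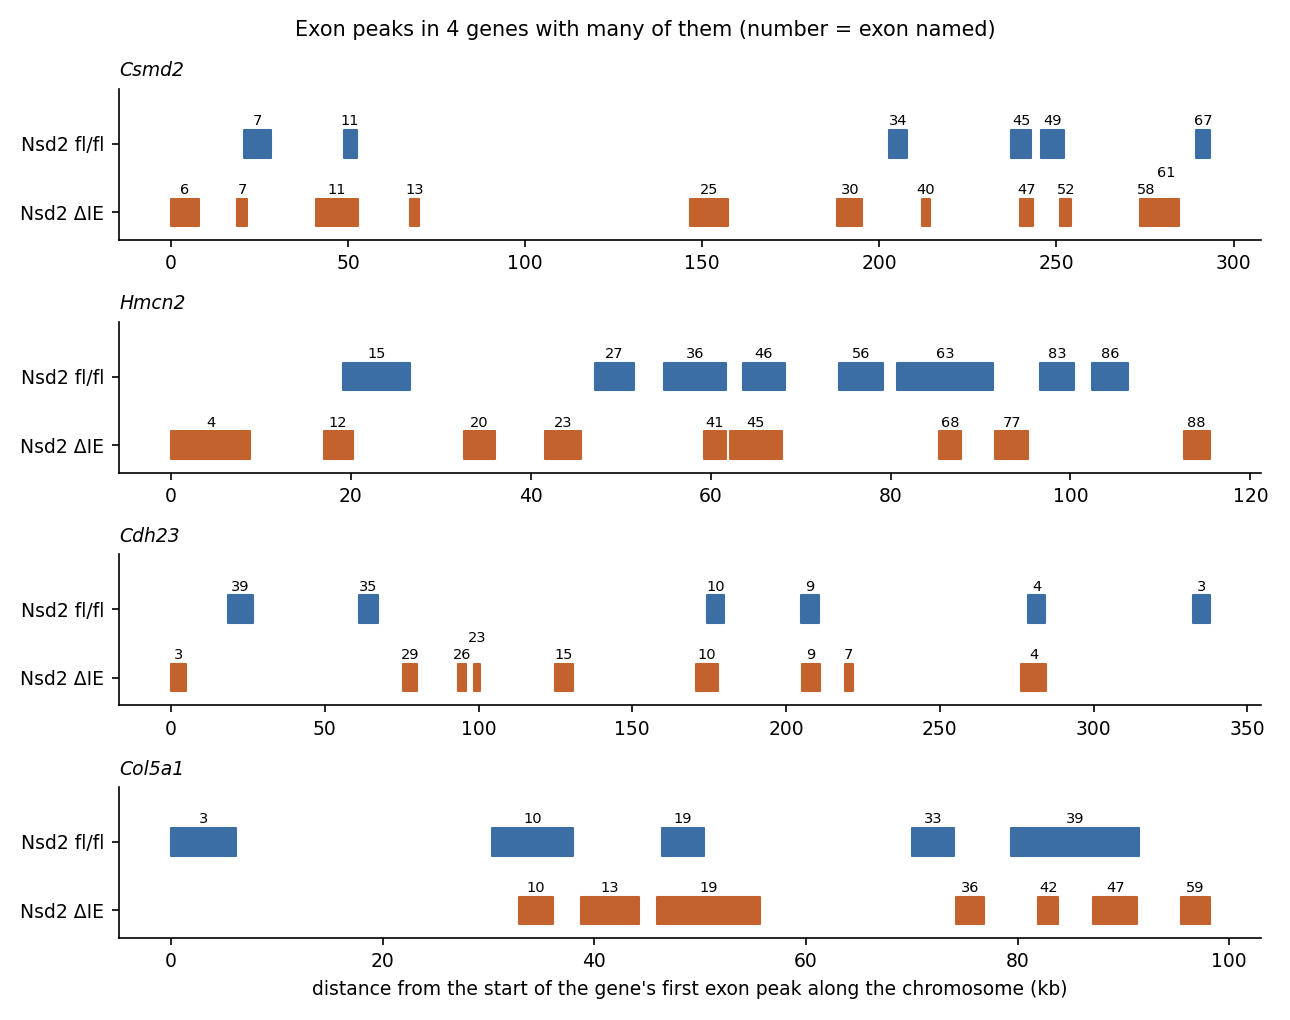
Exon peaks of Csmd2, Hmcn2, Cdh23 and Col5a1, drawn to scale along the chromosome in kb from the first exon peak of each gene. The upper row of each panel is Nsd2 fl/fl and the lower Nsd2 ΔIE, each bar is 1 peak, and the number above it is the exon named. The 6 Csmd2 bars of Nsd2 fl/fl face 11 below, and the Cdh23 bars named for exons 4, 9 and 10 overlap in both rows.

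Summed per gene, exon peaks covered less length in Nsd2 ΔIE for 546 of the 1266 genes, or 43.1%, and more for 195, or 15.4%, with 0.5 on the log2 scale as the limit. For all peaks of a gene, 42.0% of 7459 genes had less and 18.9% more. The median log2 ratio was -0.36 for exon peaks and -0.33 for all peaks. Exon peaks thus stood close to the background of the lists, and relative to that median 350 genes had less and 325 more. By the number of exon peaks in place of their length, the balance turned, with 189 genes lower and 274 higher.

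**Figure D5:**
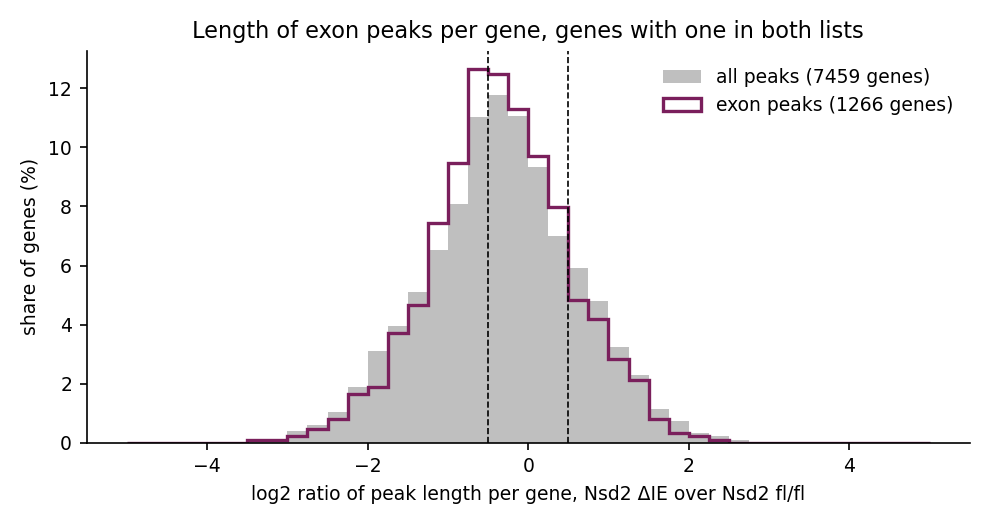
Distribution of the log2 ratio of peak length per gene, Nsd2 ΔIE over Nsd2 fl/fl, for exon peaks (line, 1266 genes) and all peaks (grey, 7459 genes) among genes with such a peak in both lists. The vertical axis is the share of genes and dashed lines mark 0.5 in each direction. Both distributions are centred below 0, with medians of -0.36 and -0.33.

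The largest falls came where several exon peaks of Nsd2 fl/fl faced 1 in Nsd2 ΔIE. Itpr1, which encodes an IP3 receptor that releases calcium from the endoplasmic reticulum, had 7 exon peaks in Nsd2 fl/fl, from exon 11 of 38 to exon 57 of 63 in a longer transcript, covering 40430 bp. In Nsd2 ΔIE it had 1, of 3890 bp, a log2 ratio of -3.38. Eps15l1, an endocytosis adaptor gene, went from 21379 bp in 4 peaks to 2533 bp in 1, and the neural adhesion gene Ncam1 from 17358 bp in 2 to 2305 bp in 1. Camta1, a calmodulin-binding transcription factor gene, and Ntng2, which encodes the axon guidance protein netrin-G2, had log2 ratios of -2.87 and -2.75. In Camta1 none of the exon peaks of the 2 lists overlapped, although one of Nsd2 fl/fl met an intron peak. In Eps15l1 the Nsd2 fl/fl peak in exon 15 of 16, of 4113 bp, met a Nsd2 ΔIE intron peak of 3148 bp. The Nsd2 ΔIE peak of Ncam1 lay within a Nsd2 fl/fl 3′ UTR peak of 6661 bp. The Nsd2 fl/fl peak of Ncam1 in exon 2, of 9110 bp, met a Nsd2 ΔIE exon peak of 3060 bp named for Gm11149. Intron and UTR peaks, and exon peaks named for another gene, were not in these sums.

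The largest rises had the reverse form. Pcsk6, which encodes a proprotein convertase, had 1 exon peak of 4107 bp in Nsd2 fl/fl and 5 covering 20906 bp in Nsd2 ΔIE, a log2 ratio of 2.35. The Nsd2 fl/fl peak, in exon 19 of 21, overlapped the one in exon 20, and those in exons 3, 7, 10 and 15 stood alone. Rbm19, which encodes an RNA-binding protein of ribosome assembly, had 3549 bp against 14990 bp, and its log2 ratio of 2.08 became 0.11 when exon peaks were summed by nearest gene. Piezo2, a mechanosensitive channel gene, went from 2781 bp to 11511 bp. Chd5, a chromatin remodeller gene, went from 4164 bp in exon 19 of 39 to 16778 bp in 4 peaks between exons 4 and 23. Zmynd8, a chromatin reader gene, went from 3308 bp to 13092 bp. Peaks annotated otherwise than to an exon were not in these sums. The Nsd2 ΔIE peak of Zmynd8 in exon 19, of 3027 bp, overlapped a Nsd2 fl/fl 3′ UTR peak of 7638 bp. That of Rbm19 in exon 23, of 11156 bp, overlapped a Nsd2 fl/fl intron peak of 4124 bp. In Zmynd8 and Rbm19, part of the added exon length thus lay over Nsd2 fl/fl peaks with another annotation. The Nsd2 ΔIE peaks of Piezo2 in exons 21 and 52, of Chd5 in exons 4 and 10 and of Zmynd8 in exon 13 had no counterpart.

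The widest exon peaks of Nsd2 fl/fl faced shorter ones in the other list. The widest of Nsd2 fl/fl, 21538 bp named for exon 9 of 17 of Cdh4, which encodes R-cadherin, lay on chromosome 2 from 179508060 to 179529597 and spanned Nsd2 ΔIE peaks of 4442 bp and 6293 bp. The next, 21286 bp in Bin1, a membrane curvature gene, overlapped peaks of 8188 bp, 3507 bp and 4770 bp. Wnk2, which encodes a kinase of ion transport, had 17599 bp over peaks of 5164 bp and 3576 bp. Phldb1 had 16613 bp over 4371 bp. Esrrg, an orphan nuclear receptor gene, had 18732 bp over an intron peak of 4308 bp.

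Wide exon peaks of Nsd2 ΔIE, picked alike for their width, ran the other way. In Plxna1, which encodes a semaphorin receptor, one of 18135 bp named for exon 4 of 32, on chromosome 6 from 89306942 to 89325076, spanned a Nsd2 fl/fl peak of 8374 bp. Gse1 had 13501 bp, which overlapped a peak of 5293 bp. The F-box gene Fbxo21 had 13116 bp in Nsd2 ΔIE, which overlapped peaks of 9393 bp and 8853 bp.

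Several of the exon peaks with the highest signal per bp were narrow. Hjurp, which encodes the chaperone of the centromeric histone, had 22.1 per bp over 2949 bp in exon 4 of 8 in Nsd2 fl/fl, on chromosome 1 from 88199164 to 88202112. Its Nsd2 ΔIE counterpart of 6176 bp had 14.6 per bp and was named for a 5′ UTR. Adcyap1r1, the receptor gene of the neuropeptide PACAP, reached 13.6 per bp over 1888 bp, the spindle checkpoint gene Mad1l1 11.9 over 1910 bp, and the kinetochore motor gene Cenpe 11.7 over 1936 bp, and the last 2 had no counterpart. In Nsd2 ΔIE, Hgs, which encodes an endosomal sorting protein, had 15.0 per bp over 1558 bp in exon 9 of 22. There the Nsd2 fl/fl list named the same exon, with 6.31 per bp over 3803 bp. As scaling to depth is not stated, the values of the 2 lists were not compared, here or for Hjurp. Abcc6, a transporter gene, had 13.7 per bp over 1309 bp with no counterpart, and the synaptic scaffold gene Grip2 13.5 over 1313 bp within a Nsd2 fl/fl peak of 3835 bp. Since each list had a lowest summed signal, a narrow peak could be listed only with a high value per bp. By summed signal Mad1l1 and Cenpe had ranks 17524 and 17880 of 19976, and Abcc6 and Grip2 18189 and 18910 of 23518. The peaks of Mad1l1, Cenpe, Abcc6 and Grip2 were therefore not strong ones. Hjurp stood higher, at rank 681 of 19976, while Adcyap1r1 had rank 12113 of 19976 and Hgs rank 7657 of 23518.

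The overlapping exon peaks with the highest signal in both lists were placed almost alike. The noncoding gene 2700054A10Rik had an exon peak of 10715 bp in Nsd2 fl/fl, on chromosome 17 from 13760234 to 13770948, and of 10720 bp in Nsd2 ΔIE, from 13760336 to 13771055. Both were named for exon 2 of 5, with 14.1 and 14.4 per bp, and shared 10613 bp. The next such pair, in the noncoding gene Gm40674, measured 15205 bp and 12729 bp, and Plxna1 and Bin1 were also among the 5 strongest. The highest exon value of all, 40.4 per bp over 14957 bp in Nsd2 ΔIE, was on an unplaced contig. No exon peak lay on the X chromosome, which held 1 and 5 peaks of any kind.

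Markers of several colon cell types carried exon peaks. Of the 19 epithelial markers, 9 and 12 had a peak of any kind. An exon peak was found at 3 of them in Nsd2 fl/fl against 7 in Nsd2 ΔIE, where 9.4% and 11.3% of all protein-coding genes had one. Those in both were Cdh1, which encodes E-cadherin, the intestinal cadherin gene Cdh17 and the brush border myosin gene Myo1a. Cdh17 was named for exon 13 of 18 in both lists, with 6103 bp and 4147 bp. The other 4 in Nsd2 ΔIE were Hnf4a, Krt20, the goblet cell mucin gene Muc2 and Vil1, whose promoter drives the Cre. Vil1 had exon peaks of 3133 bp and 6860 bp in exons 5 and 13 of 20, with 5.52 and 5.95 per bp.

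Genes of cells outside the epithelium carried exon peaks as well. Of 10 smooth muscle markers 2 and 3 had one, both lists having Myh11 and Mylk, and Myh11, the smooth muscle myosin gene, went from 14679 bp in 3 peaks to 3081 bp in 1. Of 7 endothelial markers 3 and 4 had one, with Pecam1 and Vwf in both, and of 10 enteric neuron and glia markers 4 and 2, with Chat and Ret in both. Immune markers had 1 of 14 in each list, Itgam in Nsd2 fl/fl and Ptprc in Nsd2 ΔIE. Fibroblast markers had 0 and 1 of 9. With 9.4% and 11.3% of all coding genes carrying an exon peak, the immune and fibroblast counts lay near the background, and the lists are too short to read the others. The mark in a mixed tissue cannot be assigned to a cell type from these lists.

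Of the 5 ER stress sensors none had an exon peak, and of the 12 tight junction genes only Tjp3 had one, in exon 7 of 21 in Nsd2 ΔIE. The 18 genes of H3K36 methylation had exon peaks at 6 in Nsd2 fl/fl compared with 4 in Nsd2 ΔIE. Beside the 9.4% and 11.3% of all coding genes with an exon peak, the counts of the ER stress and tight junction lists lay near the background. The demethylase genes Kdm2b and Kdm4b had them in both, with log2 ratios of -1.64 and -0.92. Dnmt3a, the reader gene, had one of 7344 bp in exon 5 of 23 only in Nsd2 fl/fl, and so did Setd2, in exon 14 of 22, and the demethylase gene Kdm2a, in exon 12 of 21. Kdm4a had one of 10545 bp in exon 11 of 22 only in Nsd2 ΔIE.

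Lists of long genes with many exons held exon peaks far more often than the 9.4% and 11.3% of all coding genes. The peaks named transcripts with a median of 32 to 79 exons in these lists, against 16 and 15 over all exon peaks, and gene length and exon number were not matched. Of 27 genes of basement membrane and matrix glycoproteins 16 had one in Nsd2 fl/fl, 17 in Nsd2 ΔIE and 13 in both, among them the laminin genes Lama1, Lama3 and Lama5 and Hspg2, which encodes perlecan. Of 20 spectrins, plakins, filamins and talins 11, 17 and 11 did, and Sptbn5 went from 9857 bp in 2 peaks to 26264 bp in 6. Of 36 myosins it was 18, 23 and 16, with falls at Myo10, from 22062 bp to 5938 bp, and at Myh10, from 15121 bp to 4593 bp.

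Of 16 genes of calcium channels and calcium release receptors, 13 had an exon peak in Nsd2 fl/fl, 11 in Nsd2 ΔIE and 10 in both. Cacna1s, the skeletal muscle channel gene, went from 14753 bp to 3023 bp in neighbouring exons 26 and 24 of 44, whereas Cacna1a, a neuronal channel gene, went from 8245 bp in 2 peaks to 23271 bp in 6. Of 15 axonemal dyneins 8, 10 and 7 had one. Dnah17 had 4 and 6 peaks, with 28956 bp and 17905 bp. Of 13 atypical cadherins and Notch receptors 8, 8 and 7 had one, with Notch2 from 16908 bp to 7257 bp and Notch1 from 4354 bp to 9992 bp.

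The LDL receptor family had exon peaks at 6, 6 and 4 of 14 genes, and Lrp1, the endocytic receptor gene, had 5 in each list, covering 19199 bp and 23631 bp. ABC transporters had them at 9, 10 and 5 of 33 genes. Abcc5 went from 15083 bp to 3211 bp and Abcc8, the sulfonylurea receptor gene, from 6454 bp to 21097 bp. Large chromatin regulators had them at 15, 13 and 9 of 32. Median log2 ratios of the genes with an exon peak in both lists ranged from -0.69 in dyneins to 0.46 in the LDL receptor family among these 9 lists, each over 4 to 16 genes, beside -0.36 over all such genes.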

How the data were processed

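The deposited data were 2 peak lists of H3K36me2 CUT&Tag, 1 library per genotype, sequenced as 150 bp paired ends. The submitters' processing notes name Bowtie2, SEACR, ChIPseeker and deepTools without versions. They name the human build hg38, although chromosomes and symbols are those of mouse. The authors called and annotated peaks per library. The deposited signal is a whole number summed over each region, with no stated scaling to depth. Depth is unknown, and no precision of a single peak can be given. Of 17571 gene symbols shared with the RefSeq table of GRCm38.p6, 8938 have the same length and 189 of these the same start. Coordinates are therefore printed as the lists give them, peak sequences are not shown, and positions of that table were used only to ask whether a microRNA gene lies within another gene of the same table.

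Exon number, transcript and gene were read from the annotation text. Relative position was (k - 0.5)/n for exon k of n. Overlaps needed at least 1 bp. Widths were summed per gene, and log2 ratios beyond 0.5 were counted. Shares have 95% Wilson intervals. Python 3.11.15, pandas 2.3.3, numpy 2.4.6, scipy 1.17.1 and matplotlib 3.10.9 were used, and the functions were tested on simulated lists.

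Members, gene lists and alternatives were chosen with earlier results of these data known. Genes named are Ern1 and the NSD family, in each library the 5 exon peaks with the highest signal per bp and the 5 widest, the 5 genes with the most exon peaks, the 5 that fell most and the 5 that rose most in length, the 5 strongest overlapping pairs, and list members by count, with some unnamed predicted genes left out. Not every gene under this rule is reported here. List members with values were picked after their values were seen. Alternatives were autosomes only, the strongest 50% of each list, equal numbers of peaks, other units and definitions of position, overlap and gene, and a log2 limit of 1. The maximum signal of a peak was planned as an alternative but not run, since the lists give only its place.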

Additional observations from a re-analysis of the deposited data

How the results depend on the processing

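Autosomes alone left every share, median and count within its counting error or within 1.5 times. With the strongest 50% of each list, the median width was 5545 bp and 4066 bp in Nsd2 fl/fl and Nsd2 ΔIE, the median signal 6.35 and 6.58 per bp, the share of exon peaks with a counterpart 33.3% and 32.4%, and the genes with less and more length 266 and 94. With equal numbers of peaks, the counterpart shares were 34.7% and 37.3%, so that their order turned, and Nsd2 ΔIE had a median width of 3567 bp and 6.44 per bp. A reciprocal overlap of at least 50% gave counterpart shares of 17.3% and 14.3%, and counting only exon peaks as counterparts gave 29.6% and 24.7%. Exon peaks were 33.8% and 34.1% of the peaks in gene bodies. For Nsd2 fl/fl, curated transcripts gave a median relative position of 0.47 and 44.9% in the middle stretch, and transcripts with at least 10 exons a median of 0.48, against 0.50. With (k - 1)/(n - 1), the middle stretch held 38.8% and 37.8%. A log2 limit of 1 left 266 genes with less and 81 with more, centring gave 350 and 325, and counting peaks in place of length gave 189 with fewer and 274 with more, so that the direction turned. By nearest gene the log2 ratio of Mad1l1 turned to 0.16, that of Rbm19 fell under the limit, from 2.08 to 0.11, and that of Col5a1 passed it, from -0.17 to -2.11. By number of peaks Esrrg turned to 1, Bin1 from -0.37 to 1.58 and Wnk2 from -0.36 to 1.32. The counts over all gene lists together stayed within 1.5 times, but single lists moved more. With the strongest 50% of peaks, large chromatin regulators with an exon peak in Nsd2 fl/fl went from 15 to 7, spectrins, plakins, filamins and talins from 11 to 7, enteric neuron and glia markers from 4 to 2 and immune markers from 1 to 0. No paired analysis was possible because there is 1 library per genotype. Depth is unknown and differences between genotypes have no replicate check.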
